A study of Mus musculus with 18 samples.

Results

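The genes described here encode the machinery by which a newly made protein enters the endoplasmic reticulum (ER): the signal recognition particle, its receptor, the translocon, signal peptidase and oligosaccharyltransferase. They were chosen for their roles, as a list of 33 gene symbols. All 33 are among the 25651 genes of the deposited table, and all 33 are among the 6920 genes that passed the filter on low counts. By role, 6 encode subunits of the signal recognition particle (SRP), 1 encodes the beta subunit of its receptor, 6 the translocon channel and its partners, 4 the translocon-associated protein (TRAP) complex, 5 signal peptidase and 11 oligosaccharyltransferase (OST).

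RNA was measured in whole pancreas of mice aged 20 weeks, on a mixed 129Sv and C57BL/6 background that all the groups share, in 5 KPC ASC KO mice, 7 KPC mice and 6 wild-type (WT) mice. KPC usually stands for a mouse model of pancreatic cancer, but the labels spell out neither its alleles nor the promoter that drives a recombinase. ASC is the inflammasome adaptor encoded by Pycard, and the labels name neither the part of the gene that was removed nor the cells it was removed from. Each library is 1 mouse, and neither litter nor tissue histology is labelled.

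As background, SRP binds a signal sequence as it leaves the ribosome and brings the ribosome to its receptor on the ER membrane. The growing chain then passes through the Sec61 channel, while signal peptidase cuts off the signal sequence and OST attaches a preassembled sugar to asparagines. Pancreatic acinar cells, which make digestive enzymes, carry an exceptionally dense rough ER. Plasma cells, which secrete antibody, are among the other secretory cells that a pancreas with immune infiltrates can hold.

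Libraries held 374432 to 647947 counts in KPC ASC KO mice, 452472 to 1626977 in KPC mice and 294077 to 416879 in WT mice. Pycard, the targeted gene, averaged 19.9 ± 11.7 TMM-normalised counts per 1000000 (CPM) in KPC ASC KO mice (SD, n = 5), 70.0 ± 24.2 CPM in KPC mice (SD, n = 7) and 58.6 ± 6.95 CPM in WT mice (SD, n = 6), and was lower in KPC ASC KO than in KPC mice (log2 -1.94, SE 0.35, edgeR adjusted p = 0.0043). Whether its counted tags, primed at the poly(A) tail, lie in the removed part is not stated, so this level is a limited check of the labels. The 28 acinar enzyme genes took 29.0% to 49.8% of all counts in KPC ASC KO mice, 4.01% to 35.8% in KPC mice and 42.5% to 52.3% in WT mice. Plasma cell markers summed to 9779 to 15601 CPM of all counts in KPC mice 40, 89, 145 and 154, against 1261 to 2467 in the other 3 KPC mice. KPC ASC KO mice 377 and 384 stood apart in their group, with macrophage marker sums of 2963 and 3211 CPM against 528 to 605 in the other 3, and with the lowest acinar shares of their group, 34.4% and 29.0%. In whole tissue, fewer cells of a type and less RNA per cell cannot be told apart.

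The sign of the fold change differed between 2 ways of scaling the libraries for 21 of 33 members in KPC against WT and for 24 of 33 in KPC ASC KO against KPC, so values are given under both for most members. Trimmed mean of M values (TMM) scaling sets the typical gene to no change; scaling by total counts gives each gene as a share of all counts, of which acinar enzymes take a large and variable part. With TMM the median log2 fold change of all 6920 tested genes was 0.06 for KPC against WT, -0.05 for KPC ASC KO against KPC and 0.00 for KPC ASC KO against WT. With total counts it was 1.41, -1.14 and 0.24. A gene was called higher or lower at an adjusted p under 0.05 in edgeR's quasi-likelihood test over all tested genes, and CPM below are TMM-normalised unless said otherwise.

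The share of all counts that came from the 33 members was 0.244% to 0.361% in KPC ASC KO mice, 0.384% to 0.492% in KPC mice and 0.296% to 0.380% in WT mice. Every KPC mouse was above every mouse of the other groups on this scale. Set against acinar enzyme counts, the members gave 4.91 to 12.4 counts per 1000 in KPC ASC KO mice, 10.9 to 107 in KPC mice and 5.67 to 8.69 in WT mice. The transcripts of the ER entry machinery were thus more abundant per enzyme transcript in every KPC mouse than in any WT mouse, while the ranges of KPC ASC KO and WT mice overlapped. By its construction this measure rises where enzyme counts are low.

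On the TMM scale the order was the other way round. The mean log2 CPM over the members was 6.65 ± 0.23 in KPC ASC KO mice (SD, n = 5), 6.24 ± 0.31 in KPC mice (SD, n = 7) and 6.87 ± 0.12 in WT mice (SD, n = 6). With total counts the same mean was 6.32 ± 0.29 in KPC ASC KO mice, 6.97 ± 0.16 in KPC mice and 6.37 ± 0.14 in WT mice. KPC mouse 48, with the highest acinar share of its group at 35.8%, had a TMM mean of 6.83, within the 6.67 to 7.05 of WT mice, whereas KPC mice 43 and 89, with acinar shares of 4.01% and 6.64%, had 5.93 and 5.92. In KPC ASC KO mice the lowest TMM means, 6.54 and 6.32, were those of mice 377 and 384. The part of acinar content in these differences was not tested.

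**Figure D1:**
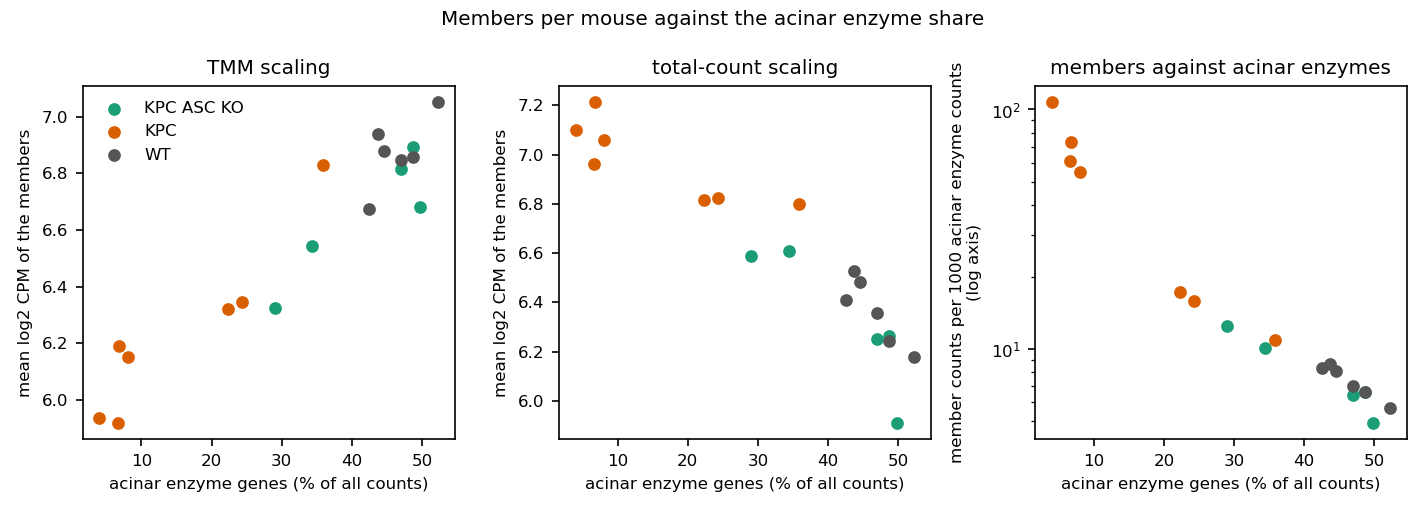
Each point is 1 mouse. The x axis is the share of counts from acinar enzyme genes (%), and the y axes are the mean log2 CPM of the 33 members under TMM scaling (left) and total-count scaling (middle), and the member counts per 1000 acinar enzyme counts (right, log axis). KPC mice spread from 4.01% to 35.8% on the x axis, and the 4 with the lowest shares lie lowest on the left and highest on the right. The right axis divides by the same acinar counts that set the x axis, so a fall there is largely built in. The left axis depends on the TMM factor of each library, which was 2.28 in KPC mouse 43 and 0.967 in KPC mouse 48.

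KPC against WT addresses the effect of the KPC genotype on the pancreas. Under TMM scaling, 20 of the 33 members were called lower in KPC, 1 was called higher and 12 were not called, that is 60.6% lower and 3.03% higher, beside 15.1% lower and 14.8% higher among all tested genes. Under total counts 18 members were called higher and 0 lower (54.5% and 0%), beside 79.6% and 2.54% of all tested genes. Under either scaling, 30 of 33 members lay below the median of all tested genes. The members' median was 0.73 below it with TMM and 0.77 below it with total counts, on the log2 scale. A change of scaling shifts all genes of a comparison by nearly the same amount. This likeness between the scalings is therefore built in and is no separate support. Only 1 member, Tusc3, was called in the same direction under both scalings. Markers of some other cell types moved alongside: 8 of 10 tested macrophage markers and 7 of 8 tested fibroblast markers were higher in KPC than in WT under TMM. Of 7 tested plasma cell markers 2 were higher and 1 lower. Few of the remaining markers were called under TMM: 1 of 7 B cell and 1 of 10 duct markers were higher, and 2 of 10 islet markers lower. Macrophage marker sums were 528 to 3211 CPM of all counts in KPC ASC KO mice, 2062 to 5106 in KPC mice and 506 to 832 in WT mice, and the part of these cells in the members' values was not tested.

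**Figure D2:**
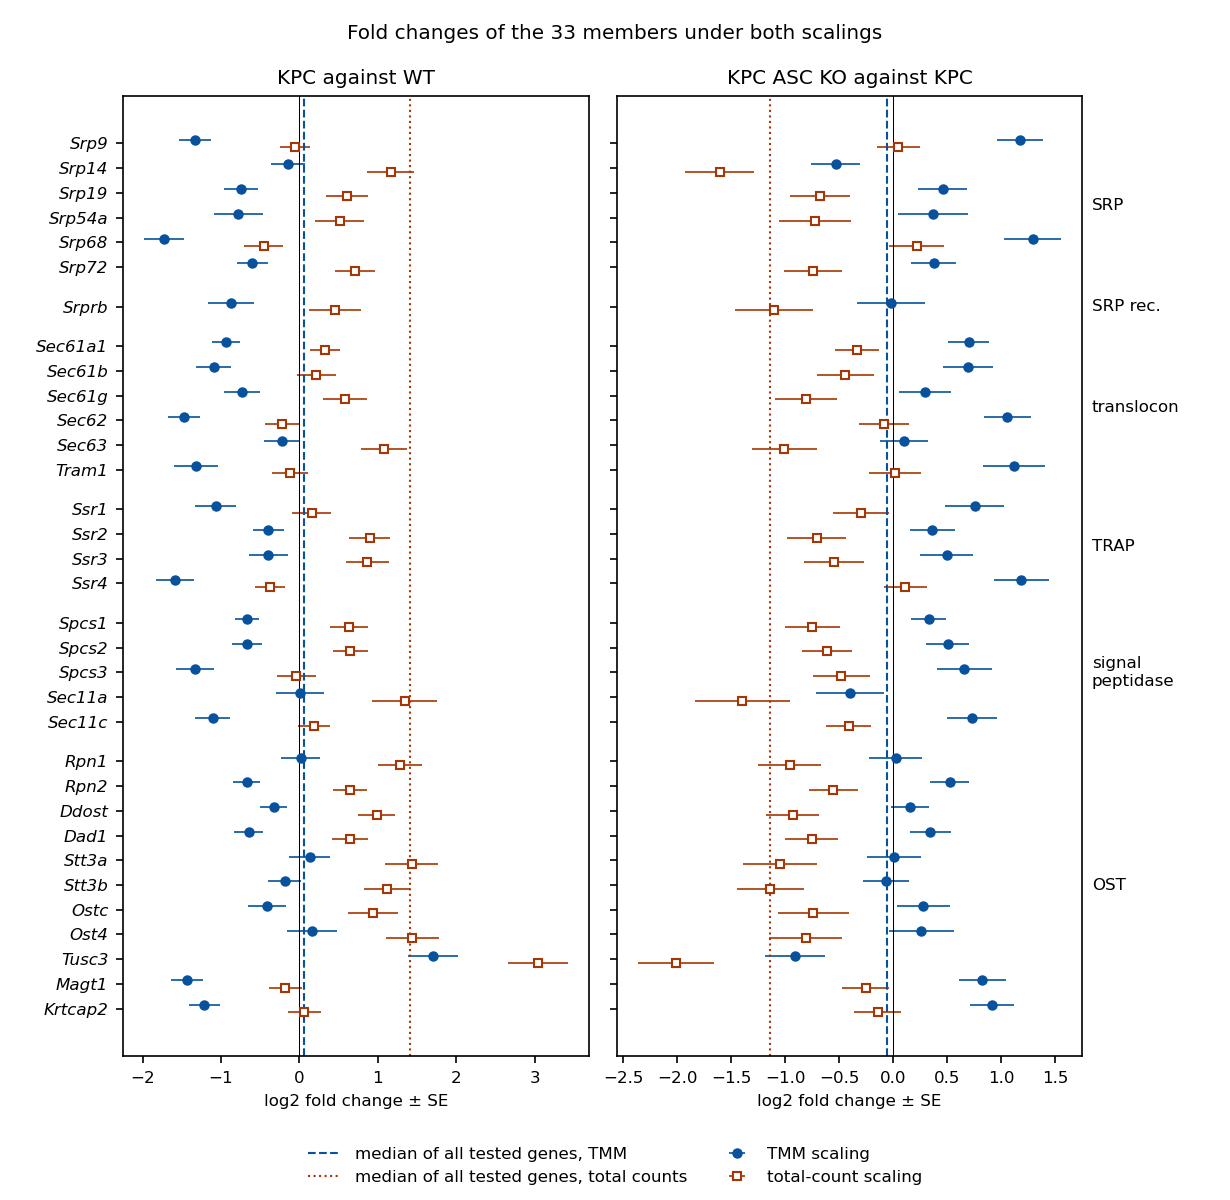
Log2 fold changes with their standard errors for the 33 members (rows, grouped by complex), for KPC against WT (left) and KPC ASC KO against KPC (right). Filled points are TMM scaling and open squares total-count scaling, and the vertical dashed and dotted lines mark the median of all tested genes under each, for example 0.06 and 1.41 on the left. Most members lie left of both medians in the left panel and right of both in the right panel, and Tusc3 lies on the opposite side in each.

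Among the subunits of SRP, 4 of 6 were called lower in KPC than in WT under TMM, with a class median of -0.76. Srp68, which with Srp72 forms the large protein heterodimer of the particle, had 88.3, 102, 72.4, 57.5 and 110 CPM in the 5 KPC ASC KO mice (318, 335, 377, 384 and 388, the order kept below), a lowest, median and highest of 23.4, 27.3 and 74.4 CPM in KPC mice and of 92.3, 110 and 139 CPM in WT mice. All KPC mice lay below all WT mice, while KPC ASC KO mice overlapped both groups. Srp68 was lower in KPC than in WT under TMM (log2 -1.72, SE 0.26, adjusted p = 8.21e-05), the largest fall among the members, and stood at -0.46 under total counts (adjusted p = 0.0819). Srp9, a subunit of the Alu domain that pauses elongation, had 248, 258, 156, 122 and 232 CPM in KPC ASC KO mice, 64.0, 82.9 and 139 CPM (lowest, median, highest) in KPC mice and 191, 219 and 278 CPM in WT mice. Its KPC values again lay wholly below its WT values, at -1.33 (SE 0.20, adjusted p = 0.000106), with -0.06 under total counts.

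The other SRP members moved less. Srp14, the partner of Srp9 in the Alu domain, had 45.6, 27.3, 35.3, 40.8 and 46.4 CPM in KPC ASC KO mice, 42.6, 50.9 and 82.5 CPM in KPC mice and 47.6, 61.1 and 84.8 CPM in WT mice. KPC and WT overlapped, and the difference was not called (log2 -0.15, adjusted p = 0.634), so that Srp9 and Srp14, which work as a pair, were not called alike. Srp19, which readies the SRP RNA for Srp54 (-0.74, adjusted p = 0.0136), and Srp72 (-0.60, adjusted p = 0.0237) were lower under TMM and higher under total counts (0.61 and 0.71, adjusted p = 0.0382 and 0.0139). The TMM call of Srp19 was lost without WT mouse 69, and that of Srp72 without WT mouse 69 or 1197 or KPC mouse 40. Srp54a, the GTPase that binds the signal sequence, was at -0.78 under TMM (adjusted p = 0.0622) and 0.51 under total counts, without a call, and its reads are uncertain because Srp54b and Srp54c are nearly identical copies.

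Srprb, the membrane-anchored beta subunit of the SRP receptor, had 25.6, 50.8, 50.1, 22.3 and 50.7 CPM in KPC ASC KO mice, 27.0, 40.1 and 62.4 CPM in KPC mice and 36.1, 68.4 and 123 CPM in WT mice. The WT mice were widely spread and overlapped both other groups. It was lower in KPC than in WT under TMM (-0.87, SE 0.29, adjusted p = 0.0273) and at 0.46 under total counts (adjusted p = 0.2). The call was lost without WT mouse 1197, 1237 or 1238 (adjusted p up to 0.0939). Srpr, the alpha subunit and no member of the list, averaged 87.2 ± 32.3 CPM in KPC mice (SD, n = 7) and 272 ± 48.3 CPM in WT mice (SD, n = 6), at -1.67 (adjusted p = 3.6e-05) and -0.41 under total counts.

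The translocon group had the lowest class median, -1.02, with 5 of 6 members called lower in KPC under TMM. Sec62, which with Sec63 serves short and post-translationally imported chains, had 402, 320, 234, 182 and 380 CPM in KPC ASC KO mice, 79.2, 133 and 228 CPM in KPC mice and 308, 412 and 471 CPM in WT mice. Every KPC mouse lay below every WT mouse, at -1.47 (SE 0.21, adjusted p = 6.26e-05) with TMM and -0.22 (adjusted p = 0.343) with total counts. Sec61a1, the channel itself, had 333, 383, 289, 271 and 279 CPM in KPC ASC KO mice, 133, 163 and 329 CPM in KPC mice and 280, 364 and 475 CPM in WT mice. Here KPC mouse 48 alone reached into the WT range, and the fall was -0.94 (SE 0.18, adjusted p = 0.000761) with TMM against 0.32 (adjusted p = 0.119) with total counts. Tram1, a membrane protein that helps chains insert beside the channel, had 239, 301, 132, 115 and 279 CPM in KPC ASC KO mice, 52.8, 89.9 and 178 CPM in KPC mice and 167, 237 and 340 CPM in WT mice. KPC and WT values of Tram1 overlapped slightly, at -1.32 (SE 0.28, adjusted p = 0.00178) and -0.12 under total counts.

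The small channel subunits Sec61b and Sec61g were lower as well under TMM (-1.09 and -0.73, adjusted p = 0.0011 and 0.0206), and at 0.21 and 0.58 under total counts without a call. The call of Sec61g was lost without WT mouse 1213 or KPC mouse 89. Sec63, a J-domain protein that recruits the luminal chaperone BiP to the channel, was not called under TMM (-0.23, adjusted p = 0.464) and was higher under total counts (1.08, adjusted p = 0.00172). Of the TRAP complex, which sits beside the channel and assists some signal sequences, Ssr4 (-1.59, adjusted p = 0.000162) and Ssr1 (-1.07, adjusted p = 0.00448) were lower, and Ssr2 and Ssr3 (both -0.39) were not called. Under total counts Ssr1 was at 0.16 without a call, and Ssr2 and Ssr3 were called higher (0.90 and 0.86). Ssr4 had 467, 555, 213, 299 and 435 CPM in KPC ASC KO mice, 96.7, 168 and 317 CPM in KPC mice and 416, 528 and 586 CPM in WT mice. All KPC mice lay below all WT mice, and the total-count value was -0.37 (adjusted p = 0.0748). For Ssr4, Srp68, Sec62, Magt1, Tram1, Srp9 and Spcs3, the total-count value was also below 0, although none of the 7 was called on that scale.

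Signal peptidase had 4 of 5 members lower under TMM, with a class median of -0.67. They were Spcs3 (-1.34, adjusted p = 0.000434), whose yeast counterpart is essential for cleavage, the subunits Spcs1 and Spcs2 (both -0.67, adjusted p = 0.00299 and 0.0108), and Sec11c. Under total counts Spcs3 was at -0.04, whereas Spcs1 and Spcs2 were called higher (0.63 and 0.65, adjusted p = 0.0189 and 0.0101). The enzyme has a catalytic subunit in either of 2 versions, Sec11a or Sec11c, and these differed. Sec11c had 333, 414, 210, 172 and 367 CPM in KPC ASC KO mice, 90.2, 185 and 264 CPM in KPC mice and 279, 363 and 515 CPM in WT mice, with no overlap between KPC and WT. It was lower in KPC than in WT at -1.11 (SE 0.22, adjusted p = 0.00108) with TMM and stood at 0.19 with total counts. Sec11a had 17.1, 50.8, 70.5, 64.9 and 25.3 CPM in KPC ASC KO mice, 48.0, 64.0 and 73.1 CPM in KPC mice and 25.8, 48.2 and 113 CPM in WT mice, and was not called under TMM (0.01, adjusted p = 0.991). It rests on 5 to 29 counts per WT library, and it overlaps the gene Nmb on the same strand, so its reads are uncertain.

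Among the 11 OST genes the members parted. Under TMM 4 were called lower in KPC than in WT, 1 higher, and 6 were not called, with a class median of -0.33. The lower ones were Magt1, Krtcap2 (-1.21, adjusted p = 0.000186), Rpn2 (-0.67, adjusted p = 0.00564) and Dad1 (-0.65, adjusted p = 0.00912). Krtcap2 encodes the subunit, known as KCP2, that helps dock the STT3A form of OST at the translocon, and Rpn2 and Dad1 are subunits that both forms of OST share. Krtcap2 had 219, 277, 160, 185 and 182 CPM in KPC ASC KO mice, 67.8, 103 and 180 CPM in KPC mice and 161, 264 and 320 CPM in WT mice, and KPC mouse 48 alone reached the WT range. The shared subunits Rpn1, Ddost and Ost4, the catalytic Stt3a and Stt3b, and Ostc, the other docking subunit of the STT3A form, lay between -0.41 and 0.16 and were not called. Under total counts these 6 were called higher, as were Rpn2, Dad1 and Tusc3, while Krtcap2 (0.06) and Magt1 (-0.18) were not called. The share of OST genes called higher, 81.8%, was near the 79.6% of all tested genes on that scale.

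OST exists in 2 forms. The STT3A form works on chains still passing through the translocon, and the STT3B form, which carries a thioredoxin-like subunit encoded by Tusc3 or Magt1, works on sites that were skipped. The catalytic subunits did not separate: Stt3a had 37.0, 23.4, 52.0, 27.8 and 42.2 CPM in KPC ASC KO mice, 27.6, 33.6 and 60.0 CPM in KPC mice and 20.5, 32.4 and 51.0 CPM in WT mice. Stt3b had 45.6, 46.9, 57.5, 37.1 and 46.4 CPM in KPC ASC KO mice, 37.8, 45.7 and 72.0 CPM in KPC mice and 44.8, 53.3 and 80.6 CPM in WT mice. The 3 groups overlapped for both genes.

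The alternative subunits moved in opposite directions. Tusc3 had 19.9, 23.4, 22.3, 14.8 and 21.1 CPM in KPC ASC KO mice, 23.4, 38.8 and 49.1 CPM in KPC mice and 4.24, 10.3 and 20.2 CPM in WT mice. All 7 KPC mice lay above all 6 WT mice, and KPC ASC KO mice lay between, overlapping WT mice and, in 1 mouse, reaching the lowest KPC value. Tusc3 was higher in KPC than in WT under TMM (log2 1.70, SE 0.32, adjusted p = 0.000557) and under total counts (3.04, SE 0.38, adjusted p = 7.19e-06). Magt1 had 128, 180, 104, 96.4 and 186 CPM in KPC ASC KO mice, 52.8, 68.3 and 134 CPM in KPC mice and 169, 216 and 227 CPM in WT mice. Its KPC values lay wholly below its WT values (-1.44, SE 0.21, adjusted p = 6.3e-05), and under total counts it stood at -0.18 (adjusted p = 0.412).

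**Figure D3:**
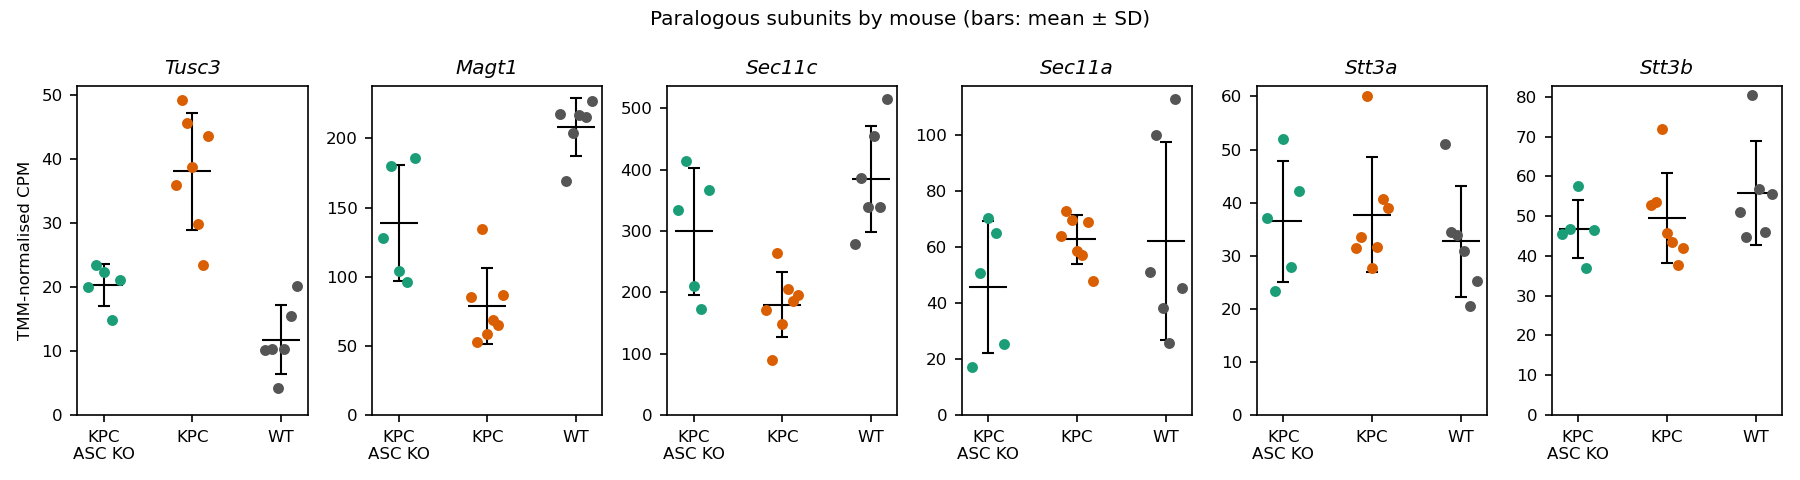
TMM-normalised CPM of 6 members that encode alternative versions of a subunit, with 1 point per mouse and the mean ± SD of each group as bars. Tusc3 is highest in KPC mice and Magt1 and Sec11c are lowest there, and the groups overlap for Sec11a, Stt3a and Stt3b.

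Promoters were examined because most members lay below the median of all tested genes in KPC against WT. A further reason was that stress-responsive factors of the ER bind known motifs. RefSeq promoter windows on GRCm38.p6, from 250 bases before to 50 bases after a start, were at hand for 24 of the 33 members. The members without a window were Tusc3, Srp68, Srp19, Sec61a1, Tram1, Ssr2, Spcs3, Sec11c and Ostc. The ER stress element (CCAAT, 9 bases of any kind, CCACG) was found on either strand in 0 of the 24, beside 0.137% of 27025 genes. The core of the unfolded protein response element (TGACGTG) was found in 0 of the 24, beside 2.22% of genes. The second form of the ER stress element (ATTGG, 1 base of any kind, CCACG) was found in 1 of the 24 members, Krtcap2, beside 12 of the 27025 genes (0.0444%). Both forms hold CCACG, and ATTGG is CCAAT read on the other strand. Krtcap2 is shown for this match, which is in 1 of its 2 windows, on the plus strand, and begins 18 bases after the transcription start, near the window's end; it is in capitals. Magt1 is shown as the subunit that was lower in KPC under TMM while Tusc3 was higher, with no match and no capitals.
Krtcap2, chr3:89246223-89246522, plus strand: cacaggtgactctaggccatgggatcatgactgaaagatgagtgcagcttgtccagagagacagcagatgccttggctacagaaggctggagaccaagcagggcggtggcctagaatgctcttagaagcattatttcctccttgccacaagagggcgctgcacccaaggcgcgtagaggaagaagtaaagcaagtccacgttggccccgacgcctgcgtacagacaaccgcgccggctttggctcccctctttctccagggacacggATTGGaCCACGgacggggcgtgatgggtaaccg
Magt1, chrX:106011753-106012052, minus strand: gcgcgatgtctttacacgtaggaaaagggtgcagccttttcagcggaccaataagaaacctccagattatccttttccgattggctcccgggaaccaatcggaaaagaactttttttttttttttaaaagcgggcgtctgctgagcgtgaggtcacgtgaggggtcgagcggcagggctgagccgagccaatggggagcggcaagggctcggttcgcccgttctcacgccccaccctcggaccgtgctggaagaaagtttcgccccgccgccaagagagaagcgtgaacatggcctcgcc
A match of letters is a description of the window and not a bound site, and a window without a match says only that these letters are not in it. In the GRCm38 coordinates of the deposited table, Krtcap2 lies on chromosome 3 at 89245966 to 89249906, Magt1 on the X chromosome at 105968084 to 106011906 and Tusc3 on chromosome 8 at 39005845 to 39165114.

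The depth behind Tusc3 was low. It had 5 to 12 counts per library in KPC ASC KO mice, 19 to 158 in KPC mice and 1 to 4 in WT mice, and it passed the low-count filter through the KPC mice, the group in which it was high. The filter asks for enough counts in any 5 libraries and does not read the groups, and with no filter Tusc3 was at 1.85 for KPC against WT (adjusted p = 0.000168). Summed over libraries, Tusc3 made up 13.5% of the Tusc3 and Magt1 counts in KPC ASC KO mice (38 and 243 counts, exact 95% binomial interval 9.75% to 18.1%), 36.6% in KPC mice (398 and 688 counts, 33.8% to 39.6%) and 5.23% in WT mice (16 and 290 counts, 3.02% to 8.35%). The 3 intervals do not meet, but they cover counting error only. Per mouse the share was 10.2% to 17.6% in KPC ASC KO mice, 25.3% to 48.2% in KPC mice and 2.04% to 8.16% in WT mice, without overlap between any of the groups.

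Such a ratio within a library does not depend on the scaling. The log2 ratio of Tusc3 to Magt1 counts, with 0.5 added to each, was -2.65 ± 0.32 in KPC ASC KO mice (SD, n = 5), -1.01 ± 0.51 in KPC mice (SD, n = 7) and -4.01 ± 0.58 in WT mice (SD, n = 6). The difference of 3.0 between KPC and WT, a 7.99-fold higher ratio, had p = 0.000583 in an exact two-sided permutation test over mice, the smallest that 7 against 6 mice allow (adjusted p = 0.00524 over 9 tests of 3 gene pairs). For KPC ASC KO against KPC it was -1.64 (exact permutation p = 0.00126, the smallest possible, adjusted p = 0.00568), and for KPC ASC KO against WT it was 1.36 (exact permutation p = 0.00433, adjusted p = 0.013). Leaving out any 1 mouse kept all 3 differences past the threshold. Without KPC mice 40, 89, 145 and 154 the first 2 differences were 3.14 and -1.78, with p at the smallest value that 3 KPC mice allow and an adjusted p of 0.0536 each. Whether Tusc3 or Magt1 sets the ratio cannot be read from it.

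The ratio of Sec11c to Sec11a was 2.77 ± 1.26 in KPC ASC KO mice (SD, n = 5), 1.46 ± 0.58 in KPC mice (SD, n = 7) and 2.74 ± 0.93 in WT mice (SD, n = 6) on the same scale. It was lower in KPC than in WT by a difference of -1.28 (exact permutation p = 0.00699, adjusted p = 0.0157), although the groups overlapped. For KPC ASC KO against KPC it was 1.31 and did not pass (exact permutation p = 0.0328, adjusted p = 0.0591), and it passed without KPC ASC KO mouse 377 or 384 (adjusted p = 0.0218 at the lowest). Without KPC mice 40, 89, 145 and 154 the KPC against WT difference was -1.33 and did not pass (adjusted p = 0.188). Sec11a, the denominator, had 5 to 29 counts per WT library and 6 to 38 per KPC ASC KO library. Its reads are uncertain because it overlaps Nmb on the same strand. For Stt3a to Stt3b the differences were 0.35 for KPC against WT, 0.02 for KPC ASC KO against KPC and 0.37 for KPC ASC KO against WT (adjusted p = 0.219, 0.959 and 0.225). Without WT mouse 69 the first of these was 0.50 and passed (adjusted p = 0.0492).

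**Figure D4:**
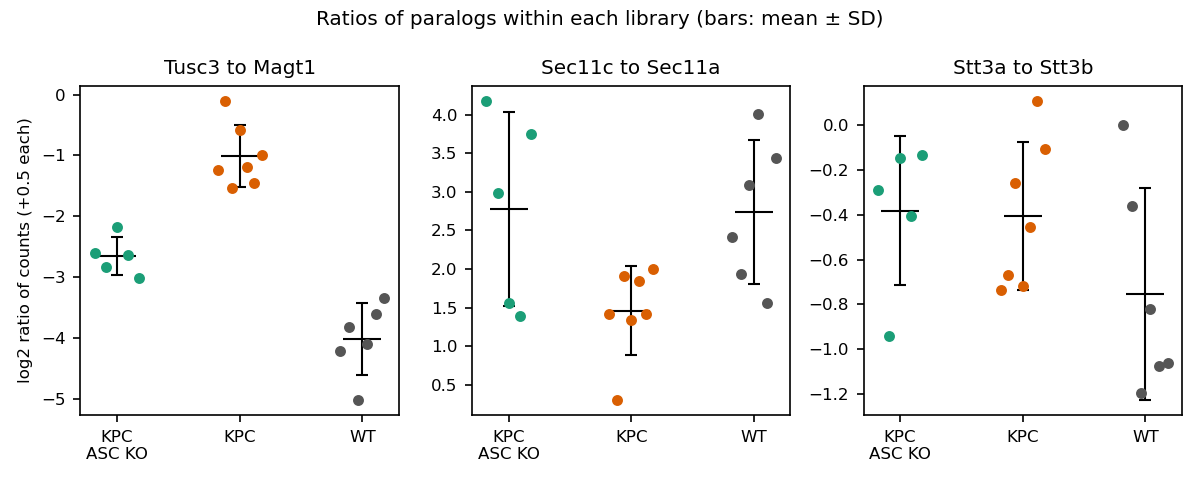
Log2 ratio of the counts of paralogous members in the same library, with 0.5 added to each count, by group (points are mice, bars the mean ± SD). For Tusc3 to Magt1 the groups average -2.65 in KPC ASC KO, -1.01 in KPC and -4.01 in WT mice and do not overlap, whereas for the other pairs they do.

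KPC ASC KO against KPC addresses the loss of ASC on the KPC background. Under TMM, 9 of 33 members were called higher in KPC ASC KO, 1 lower and 23 not, that is 27.3% and 3.03%, beside 6.73% and 2.69% of all tested genes. Under total counts 0 were called higher and 20 lower, beside 2.05% and 73% of all tested genes. The members' median lay 0.43 above that of all tested genes with TMM and 0.44 above it with total counts, and 29 and 30 of the 33 members were above it. That these values are alike under both scalings is again built in. This comparison and KPC against WT share the KPC mice, so that a member low in those mice appears in both.

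The 9 members higher in KPC ASC KO under TMM came from each complex but the receptor. From SRP they were Srp68 (1.29, SE 0.26, adjusted p = 0.0064) and Srp9 (1.18, SE 0.21, adjusted p = 0.0043). From the translocon they were Tram1 (1.13, adjusted p = 0.0196), Sec62 (1.06, SE 0.22, adjusted p = 0.00649) and Sec61a1 (0.70, adjusted p = 0.0235), from TRAP Ssr4 (1.19, adjusted p = 0.00903), from signal peptidase Sec11c (0.73, adjusted p = 0.0477), and from OST Krtcap2 (0.92, adjusted p = 0.0103) and Magt1 (0.83, adjusted p = 0.0192). Leaving out KPC ASC KO mouse 318, 335 or 388 ended the calls of Tram1, Magt1, Sec61a1 and Sec11c, and leaving out mouse 335 also that of Krtcap2. The calls of Sec61a1 and Sec11c were lost without KPC mouse 89, 145 or 154 as well, and that of Sec11c also without KPC mouse 40, 43 or 210. None of the 9 was called under total counts, where they lay between -0.41 and 0.22. Each of the 9 had at least 1 KPC ASC KO mouse within the range of KPC mice. These were mice 377 and 384 for Srp68, Tram1, Ssr4 and Sec11c, the same mice and 1 other for Sec61a1 and Magt1, mouse 384 alone for Srp9 and Sec62, and mouse 377 alone for Krtcap2. Mice 377 and 384 had the lowest acinar shares of their group.

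Tusc3 was the 1 member called lower, at -0.91 under TMM (SE 0.28, adjusted p = 0.0407) and -2.01 under total counts (SE 0.35, adjusted p = 0.00105), where all 5 KPC ASC KO mice lay below all 7 KPC mice. The TMM call was lost without KPC mouse 40 or 89 or without any 1 of the 5 KPC ASC KO mice (adjusted p up to 0.112), with limma-voom (0.0727), and without a low-count filter (0.0853). The number of members called higher ranged from 4, without KPC ASC KO mouse 335, to 15, without KPC mouse 48, and was 5 without KPC ASC KO mouse 318 or 388. It was 4 when only these groups were fitted. Without KPC mice 40, 89, 145 and 154 it was 0, beside 0% higher and 0.0171% lower of the 5852 genes then tested. In that fit 12 members had an unadjusted p under 0.05 in edgeR, beside 861 of the 5852 genes. The members' median was 0.36, beside 0.00 for all genes then tested.

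Without the same 4 mice, 10 members in place of 20 were lower in KPC than in WT under TMM, beside 5.91% lower and 6.94% higher among all 5852 genes tested in that fit, with the members' median at -0.65 beside -0.67 in all mice. The 10 were Krtcap2, Magt1, Sec11c, Sec61b, Sec62, Spcs1, Spcs3, Srp68, Srp9 and Ssr4, all among the 20, and Tusc3 was again called higher (2.02, adjusted p = 0.00155). Plasma cell transcripts, highest in those 4 mice, come from a secretory cell type that uses the same machinery, and their part in the members' levels was not tested.

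In KPC ASC KO against WT, no member was called in either direction under either scaling in edgeR, beside 0% higher and 0% lower of all tested genes with TMM, and 0% higher and 0.0145% lower with total counts. At an unadjusted p under 0.05 there were 4 of the 33 members in edgeR, 4 in DESeq2 and 5 in limma-voom. Of all 6920 tested genes, 691, 670 and 462 were under that threshold in the same order. DESeq2 and limma-voom called no member either. The members' median was -0.28 with TMM and -0.07 with total counts, and 28 of 33 members lay below the median of all tested genes under both. The members with the smallest p were Srp14 (-0.68, SE 0.25, unadjusted p = 0.013, adjusted p = 0.379), Magt1 (-0.61, SE 0.23, adjusted p = 0.379) and Srprb (-0.89, SE 0.34, adjusted p = 0.393). For Srp14 all 5 KPC ASC KO mice lay below all 6 WT mice on the TMM scale, with ranges of 27.3 to 46.4 and 47.6 to 84.8 CPM, but under total counts the groups overlapped (-0.45). Magt1 and Srprb stood at -0.43 and -0.65 under total counts. Tusc3 stood at 0.79 under TMM (adjusted p = 0.507), with overlap, and at 1.03 under total counts (adjusted p = 0.5), where all KPC ASC KO mice lay above all WT mice.

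The neighbouring steps of the secretory pathway were counted from lists drawn up by role. Single genes are given on the TMM scale unless said otherwise, beside 15.1% of all tested genes lower and 14.8% higher in KPC than in WT on that scale. Under total counts those shares were 2.54% lower and 79.6% higher. For KPC ASC KO against KPC under TMM they were 2.69% lower and 6.73% higher. Of 6 tested genes that also serve translocation or OST, 5 were lower in KPC than in WT under TMM, with a median of -0.82: besides Srpr they included Tmem258, a small OST subunit (-0.92, adjusted p = 0.00259), and Srp54b (-0.89, adjusted p = 0.00831), the near copy of Srp54a. Under total counts 1 was called higher and 0 lower. In KPC ASC KO against KPC, Srpr was called higher (1.16, adjusted p = 0.00566) and the other 5 were not called.

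Of 12 tested genes that make the lipid-linked sugar which OST transfers, 2 (16.7%) were lower in KPC than in WT under TMM and 0 higher, with a median of -0.14, a share near that of all tested genes. They were Gmppa (-0.99, adjusted p = 0.00798) and Dpm3 (-0.81, adjusted p = 0.0131), of GDP-mannose and dolichol-phosphate-mannose synthesis, and 10 of the 12 were higher under total counts, where 79.6% of all tested genes were. Membrane protein insertion, by the EMC, GET and related complexes, had 4 of 20 lower (20%), also near the share of all tested genes, and a median of -0.04, with Nomo1 (-1.30, adjusted p = 0.0021), Tmem147 (-0.84, adjusted p = 0.00284) and Ubl4a (-0.95, adjusted p = 0.00589) first. In KPC ASC KO against KPC, none of the sugar synthesis genes was called, and Tmem147 (0.85, adjusted p = 0.0121) and Ubl4a (1.02, adjusted p = 0.0141) were higher.

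Steps after entry were mixed. Of 12 genes of glycan trimming and lectin folding, 4 were lower in KPC than in WT under TMM, among them the cargo receptor Lman1 (-1.36, adjusted p = 0.000189) and its partner Mcfd2 (-1.16, adjusted p = 0.0146). Pdia3, the disulfide isomerase that works with calnexin and calreticulin, was higher under TMM (0.77, adjusted p = 0.00936) and under total counts (2.13). ER-associated degradation, which removes misfolded chains, had 11 of 16 lower under TMM and a median of -0.92, led by Selenos (-1.27, adjusted p = 0.000271) and the mannosidase-like Edem3 (-1.87, adjusted p = 0.00075) and Edem2 (-1.90, adjusted p = 0.000857). Edem2 was also lower under total counts (-0.74, adjusted p = 0.00847), where 3 of the 16 were lower and 7 higher. These are 18.8% and 43.8%, beside 2.54% and 79.6% of all tested genes. COPII export from the ER had 6 of 14 lower under TMM, led by Mia3 (-1.0, adjusted p = 0.000676), Sec31a and Preb. Under total counts 7 of the 14 (50%) were higher, beside the same 79.6% of all tested genes.

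In KPC ASC KO against KPC under TMM, 6.73% of all tested genes were higher. On that scale 5 of the 16 degradation genes were higher, among them Selenos (1.05, adjusted p = 0.00798), Os9 (0.96, adjusted p = 0.0184) and Edem2 (1.43, adjusted p = 0.02). So were 3 of the 14 COPII genes, with Sec23b (0.84, adjusted p = 0.0322) first, and Mcfd2 (1.33, adjusted p = 0.0219) of the glycan list. No gene of these 6 lists was called in KPC ASC KO against WT.

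**Figure D5:**
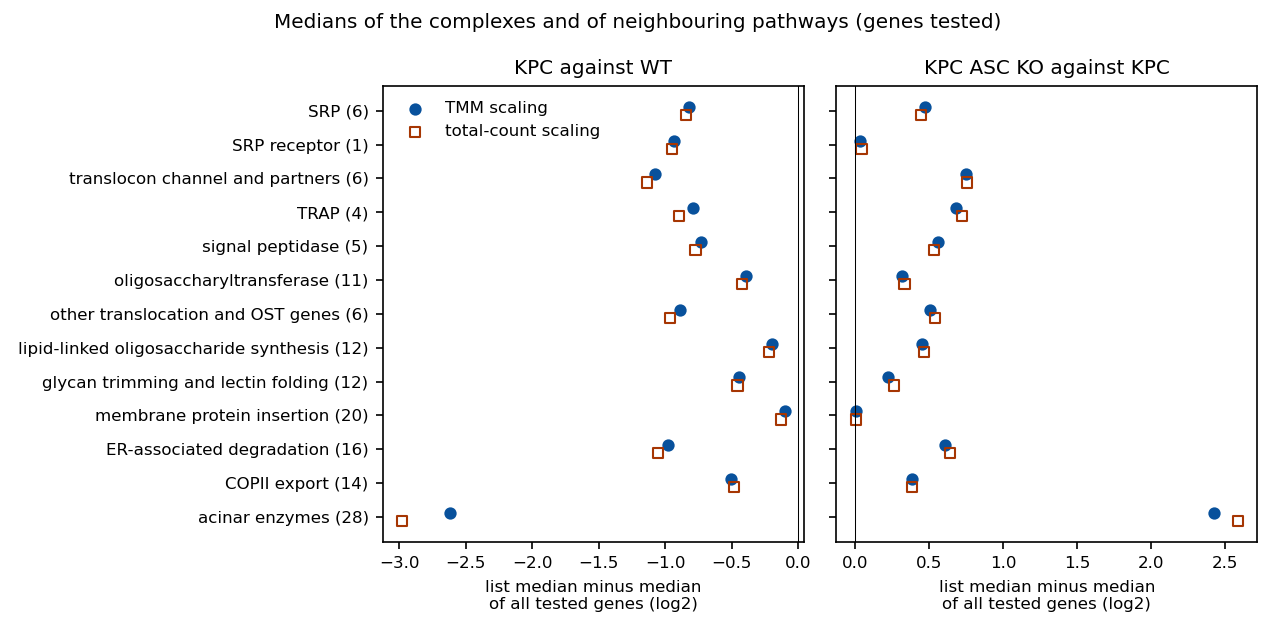
Median log2 fold change of each complex and each neighbouring list minus the median of all tested genes, for KPC against WT (left) and KPC ASC KO against KPC (right), with filled points for TMM and open squares for total-count scaling and the number of genes tested in parentheses. Acinar enzymes lie far from 0 on both sides, the translocon and ER-associated degradation lie farther than OST, and membrane protein insertion lies near 0.

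The acinar enzymes set the scale for these medians. Of 28 enzyme genes, 26 were lower in KPC than in WT under both scalings, with medians of -2.56 and -1.57, and 25 were higher in KPC ASC KO than in KPC under both, with medians of 2.37 and 1.44. The members' median, at -0.67 and 0.63 for KPC against WT, was much nearer to 0 and changed sign with the scaling, which the median of the enzymes did not.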

How the data were processed

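The deposited table holds raw UMI counts per gene, with no normalization. Per the labels' protocols, 20 ng of RNA went into each library, reverse transcription started from the poly(A) tail, and molecules carried a UMI of 10 bp. The build, per the submitters' processing notes, was GRCm38 (mm10), and their tools were limma 3.50.0, edgeR 3.36.0 and R 4.1.2. Not given in the sources used here are the aligner, how UMIs were collapsed, the annotation release and the use of strand. Positions in the table equal those of the reference annotation for 33 of 33 members.

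Genes were kept by filterByExpr (minimum count 10, smallest group 5), which left 6920 of 25651. All 18 mice were fitted together in edgeR 4.0.16 (R 4.3.3) by the quasi-likelihood test with TMM scaling and Benjamini-Hochberg adjustment over all tested genes, which gives the SEs and adjusted p printed for single genes. Total-count scaling, DESeq2 1.42.0, limma-voom (limma 3.58.1), DESeq2 size factors, no filter, fits of only the groups compared, leaving out each mouse, and leaving out KPC mice 40, 89, 145 and 154 were alternatives. The mean over members used log2 CPM with a prior count of 2. Ratios of paralogs used counts plus 0.5 and exact two-sided permutation tests over mice, adjusted over 9 tests; pairs with a gene below the filter were not tested. Intervals cover counting error only, and p-values measure the spread between mice.

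Libraries held 294077 to 1626977 counts, which limits precision for low genes such as Tusc3. All members are named. Values of each KPC ASC KO mouse, with the lowest, median and highest of the other groups, are given for the members called under both scalings, the 3 members with the smallest p in each comparison and the paralogs, and also for Sec61a1, Tram1, Ssr4 and Krtcap2, chosen after their values were seen. From each neighbouring list up to 3 genes with the smallest p in a comparison are named. Members and lists follow gene roles, but were chosen with earlier results of these data known. The test was tried on simulated counts first.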

Additional observations from a re-analysis of the deposited data

Results flagged for a closer look

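Of 114 sets of values (each member, each of 3 ratios and the members' mean under either scaling, in each group), 13 held 1 mouse that stood apart from the others by Dixon's criterion; chance gives about 1 in 20. Of these, 7 were TMM-normalised CPM of KPC mouse 48, which had the highest acinar share of its group, 35.8%. Its values were 180 for Krtcap2, against 67.8 to 115 in the other KPC mice, 134 for Magt1 (others 52.8 to 87.0), 166 for Rpn1 (others 56.9 to 95.5) and 329 for Sec61a1 (others 133 to 209). They were 52.8 for Srp54a (others 18.0 to 31.7), 62.4 for Srprb (others 27.0 to 41.6) and 60.0 for Stt3a (others 27.6 to 40.7).

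KPC ASC KO mouse 335 stood above its group in Dad1, with 289 CPM against 137 to 177, in Ddost, with 234 against 131 to 154, and in Ssr3, with 125 against 59.1 to 72.3. WT mouse 69 was low in Ssr3, with 54.4 CPM against 70.7 to 79.3, and WT mouse 1202 was high in Stt3b, with 80.6 against 44.8 to 56.8. The log2 ratio of Sec11c to Sec11a was 0.303 in KPC mouse 43, against 1.34 to 2.01 in the other KPC mice.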

How the results depend on the processing

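The scaling decided most directions, since it moves the median of all genes. With total counts, 18 members were higher and 0 lower in KPC than in WT, and 0 were higher and 20 lower in KPC ASC KO than in KPC; the differences of the members' mean became 0.60 and -0.64, and -0.042 for KPC ASC KO against WT. Among members called under at least 1 scaling, signs turned for 20 in KPC against WT: Srp14 1.16, Srp19 0.61, Srp72 0.71, Srprb 0.46, Sec61a1 0.32, Sec61b 0.21, Sec61g 0.58, Sec63 1.08, Ssr1 0.16, Ssr2 0.90, Ssr3 0.86, Spcs1 0.63, Spcs2 0.65, Sec11c 0.19, Rpn2 0.64, Ddost 0.98, Dad1 0.64, Stt3b 1.11, Ostc 0.94 and Krtcap2 0.064; Srp54a, called under neither, turned as well. They turned for 20 in KPC ASC KO against KPC: Srp19 -0.68, Srp54a -0.73, Srp72 -0.74, Sec61a1 -0.33, Sec61g -0.81, Sec62 -0.083, Sec63 -1.01, Ssr2 -0.71, Spcs1 -0.75, Spcs2 -0.61, Sec11c -0.41, Rpn1 -0.96, Rpn2 -0.55, Ddost -0.93, Dad1 -0.76, Stt3a -1.05, Ostc -0.74, Ost4 -0.81, Krtcap2 -0.14 and Magt1 -0.25, and for 4 called under neither (Sec61b, Spcs3, Ssr1 and Ssr3). Without a low-count filter 12 members were lower in KPC than in WT. The calls of Dad1, Rpn2, Sec61g, Spcs1, Spcs2, Srp19, Srp72 and Srprb were lost there (edgeR adjusted p = 0.058 to 0.157). The cause was not tested. Without a filter, with limma-voom, or with only the groups compared, 0 members were lower in KPC ASC KO than in KPC, and in the last fit 4 were higher. Without KPC mice 40, 89, 145 and 154, 10 members were lower in KPC than in WT and 0 were called in KPC ASC KO against KPC; the ratio differences were -1.33 for Sec11c to Sec11a in KPC against WT (adjusted p = 0.188), and 3.14 and -1.78 for Tusc3 to Magt1 in KPC against WT and KPC ASC KO against KPC (exact permutation, adjusted p = 0.0536 each), with fewer mice. Leaving out 1 mouse at a time gave 18 to 21 members lower in KPC than in WT, 4 to 15 higher and 0 to 1 lower in KPC ASC KO than in KPC, ratio differences of 0.26 to 0.50 for Stt3a to Stt3b in KPC against WT, and of 0.96 to 1.65 for Sec11c to Sec11a in KPC ASC KO against KPC. The calls of Sec11c and Sec61a1 in KPC ASC KO against KPC were lost without 9 and 6 of the 12 mice. No paired analysis was possible because the groups share no mouse numbers.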
